A study of Homo sapiens with 6 samples.

Results

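Expression of erythroid and blood stem cell transcription factor genes was followed across ZFX silencing in 2 leukaemia lines. The genes were GATA1, GATA2, KLF1, TAL1, LMO2, NFE2, GFI1B, ZFPM1, MYB and RUNX1. They are 10 of the 19776 genes on the array, and they were chosen by name, with every probe set that the platform annotation ties to them. This gave 32 probe sets. Of these 19 carried 1 gene symbol, and the 13 for RUNX1 were all annotated to RUNX1 together with noncoding RNA loci. One of the 13 was assigned to RUNX1 because its design accession is a RUNX1 transcript in the RefSeq table, which does not show that it reads RUNX1 alone. Of the 20 probe sets assigned to a member in these ways, 17 passed the filter on dim values and 3 did not (one each of TAL1, LMO2 and GFI1B), and each of the 10 genes kept at least 1.

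The study asked how gene expression changes when ZFX, a zinc finger transcription factor gene on the X chromosome, is silenced in leukaemia cells. Jurkat is a T cell acute leukaemia line, and K562 is a line from the blast phase of chronic myeloid leukaemia that carries BCR-ABL1 and has erythroid features. Each line gave 3 arrays: a control, cells with the ZFX hairpin 381 and cells with the ZFX hairpin 1012. Each array was hybridised with RNA pooled from 3 replicate cultures, so there was 1 control array per line and 1 array per hairpin and line. Hairpins were delivered by lentivirus and fluorescent cells were purified on a sorter. The protocol describes the control as a non-silencing vector (shNC), while the sample labels speak of normal cells, and the labels give both hairpins the same number, so the hairpins are named here by their identifiers. In bulk RNA, fewer cells of a kind and less RNA per cell cannot be told apart.

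GATA factors bind a short GATA-containing word in DNA and direct haematopoietic fate: GATA2 works in stem and progenitor cells, and GATA1 takes over as erythroid and megakaryocytic cells mature. TAL1 (SCL) binds E-boxes with an E protein and is joined to GATA factors through the bridging proteins LMO2 and LDB1, while ZFPM1 (FOG1) is the cofactor that GATA1 contacts directly. KLF1 binds CACC boxes in globin and other red cell genes, NFE2 pairs with small MAF proteins at the globin locus, and GFI1B is a repressor that recruits the demethylase KDM1A. MYB and RUNX1 act earlier, in progenitors, and both are also expressed in T lineage cells.

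Because several members are known to regulate one another through GATA sites, the GATA words in their promoters are shown here beside the expression data. The promoter is taken as the 300 bases from 250 before to 50 after the transcription start, from RefSeq (GRCh38.p14), and 8 of the 10 genes matched an entry (all but LMO2 and NFE2), with 11 promoters. The words searched were AGATAA and TGATAA and their variants ending in G, which are AGATAG and TGATAG, on both strands. They occurred in 4 of the 11 promoters, belonging to KLF1, TAL1 and GFI1B, and in 25% of the 35116 promoters of the same length in the table. Capitals mark the words below, each sequence being written 5′ to 3′ on the strand of its gene. KLF1 is at chr19:12887152-12887451 on the minus strand, TAL1 promoter 1 at chr1:47232286-47232585 on the minus strand, GFI1B promoter 1 at chr9:132945281-132945580 and GFI1B promoter 2 at chr9:132978444-132978743, both on the plus strand.
KLF1: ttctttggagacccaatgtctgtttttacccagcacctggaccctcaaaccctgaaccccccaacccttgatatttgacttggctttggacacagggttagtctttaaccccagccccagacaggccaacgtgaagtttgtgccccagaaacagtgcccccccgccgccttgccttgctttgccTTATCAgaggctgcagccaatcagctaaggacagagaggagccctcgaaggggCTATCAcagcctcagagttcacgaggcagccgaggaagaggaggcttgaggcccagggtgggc
TAL1 promoter 1: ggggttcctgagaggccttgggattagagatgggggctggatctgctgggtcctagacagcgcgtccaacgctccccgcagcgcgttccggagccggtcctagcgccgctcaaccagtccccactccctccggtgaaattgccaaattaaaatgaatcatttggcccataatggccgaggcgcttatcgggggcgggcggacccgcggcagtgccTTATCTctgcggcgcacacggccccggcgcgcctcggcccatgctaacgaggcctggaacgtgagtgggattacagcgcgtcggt
GFI1B promoter 1: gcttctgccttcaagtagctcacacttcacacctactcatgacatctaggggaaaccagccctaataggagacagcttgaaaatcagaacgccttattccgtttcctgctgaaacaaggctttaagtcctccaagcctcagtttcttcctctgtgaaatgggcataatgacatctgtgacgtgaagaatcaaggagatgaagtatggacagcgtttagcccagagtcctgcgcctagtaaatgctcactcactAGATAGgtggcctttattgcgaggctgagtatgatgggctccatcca
GFI1B promoter 2: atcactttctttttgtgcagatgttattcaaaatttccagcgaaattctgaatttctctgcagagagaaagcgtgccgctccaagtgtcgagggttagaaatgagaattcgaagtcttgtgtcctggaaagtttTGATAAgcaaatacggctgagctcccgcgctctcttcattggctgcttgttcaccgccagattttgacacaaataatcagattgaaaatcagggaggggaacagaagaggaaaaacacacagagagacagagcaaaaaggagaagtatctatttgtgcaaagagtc
In KLF1 the first base of the words lay at positions -66 and -13 from the start, in TAL1 at -35 and in GFI1B at 4 and -116. In the table the promoters of GATA1, GATA2, ZFPM1, MYB and RUNX1 and the second TAL1 promoter held none of these words. An E-box (CANNTG) was present in 5 of the 11 promoters and in 68.7% of all, and a CACC box (CCNCNCCC) in 8 of the 11 and in 56.2% of all. A match describes the letters only.

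The targeted gene and the identity of the lines were checked first. Over its 4 probe sets ZFX stood at 53.8% ± 13.6 and 39.0% ± 14.2 of control in Jurkat with hairpins 381 and 1012 and at 37.8% ± 14.6 and 30.7% ± 8.38 in K562 (mean and SD over probe sets). All 18 T lineage markers that passed the filter were lower in K562, with a summed signal of 98428 to 107318 in Jurkat and 3807 to 4749 in K562. The filter removed 0 of the T lineage markers with a probe set of their own. On the test described below, 34.5% of 11785 genes were lower in K562 and 30.2% higher. Of 6 erythroid and megakaryocyte surface markers, 5 were higher in K562, with a summed signal of 22090 to 32202 in Jurkat and 47417 to 52887 in K562. RHAG, a defining erythroid membrane protein, was at 17.7, 11.8 and 18.8 in Jurkat and 18805, 17720 and 19310 in K562. GP1BA, PF4 and CD36 did not pass the filter. A marker dim in one line could pass only through the other, so the marker counts are descriptions.

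Signals are the deposited MAS5 intensities, and fold values and tests used log2(signal + 16.9), which understates the change of dim probe sets. The K562 and Jurkat lines were compared with limma over 3 arrays per line matched by arm (control, 381, 1012), and p-values were adjusted by Benjamini-Hochberg over 27306 probe sets, with a threshold of 0.05. Each difference averages control and silenced arrays, and its p measures the spread over the arms, not between cultures. On this test 58% of all probe sets differed, 27.8% being higher and 30.2% lower in K562, so a call by itself is common. Of the 17 probe sets of members, 9 were higher and 3 lower in K562, and the same 9 and 3 had lines that did not overlap (29.8% and 31.5% of all probe sets). With the brightest probe set of each gene these were 7 and 2 of 10, with 30.2% and 34.5% of 11785 genes as background. However, 7 of the 17 probe sets exceeded the filter level, a signal of 54.4, on average in K562 alone and 0 in Jurkat alone, so they could pass only by being higher in K562 and their count is a description. They include the brightest probe sets of GATA1, KLF1, LMO2, NFE2 and GFI1B, whose differences are therefore given without a p, and whose order depends on the pseudocount. Between the control arrays alone, K562 minus Jurkat was 6.79 for LMO2, 6.37 for NFE2 and 5.81 for GFI1B (log2, brightest probe sets). It was 4.33 for GATA2, 4.02 for KLF1, 3.77 for GATA1 and 0.79 for ZFPM1. For TAL1, MYB and RUNX1 it was -0.88, -0.90 and -0.68.

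GATA1, the master regulator of erythroid and megakaryocytic maturation, had a signal of 36.4, 55.9 and 10.8 on the Jurkat control, 381 and 1012 arrays with probe set 1555590_a_at. The K562 arrays in the same order gave 710, 735 and 613. All K562 arrays lay above all Jurkat arrays, where GATA1 was close to or below the filter level. The difference was 3.88 ± 0.25 on the log2 scale (limma, ± SE, n = 3 arrays per line), and 4.71 ± 0.26 with the second probe set, 210446_at, which read 39.5, 5.59 and 8.87 in Jurkat and 921, 853 and 707 in K562.

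GATA2, the progenitor GATA factor, was measured by 3 probe sets that did not behave alike. With the brightest, 209710_at, the signal was 185, 184 and 118 in Jurkat and 4035, 4504 and 3368 in K562. Both lines exceeded the filter level on every array and did not overlap, and the difference was 4.49 ± 0.15 (adjusted p = 2.21e-09, limma). Probe set 210358_x_at gave 3.25 ± 0.19 in the same direction. The third, 207954_at, read 123, 146 and 83.7 in Jurkat and 111, 182 and 184 in K562. There the lines overlapped and the difference of 0.38 ± 0.26 did not pass (adjusted p = 0.228, limma; 95% interval -0.19 to 0.96).

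KLF1, the erythroid Krüppel-like factor, read 82.3, 64.7 and 23.7 in Jurkat and 1597, 1510 and 1229 in K562. The lowest K562 array stood far above the highest Jurkat array, and the difference was 4.40 ± 0.21. NFE2, the larger subunit of the globin-locus activator, read 7.93, 48.3 and 4.63 in Jurkat and 2043, 1389 and 1104 in K562. It was thus dim in every Jurkat array and bright in every K562 array, with a difference of 5.50 ± 0.32. GFI1B, the erythroid and megakaryocytic repressor, read 3.22, 4.86 and 10.5 in Jurkat and 1110, 1199 and 1152 in K562 with probe set 237403_at, a difference of 5.67 ± 0.22. The dimmer GFI1B probe set, 208501_at, which the filter removed, read between 1.61 and 4.77 in Jurkat and between 106 and 166 in K562.

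**Figure D1:**
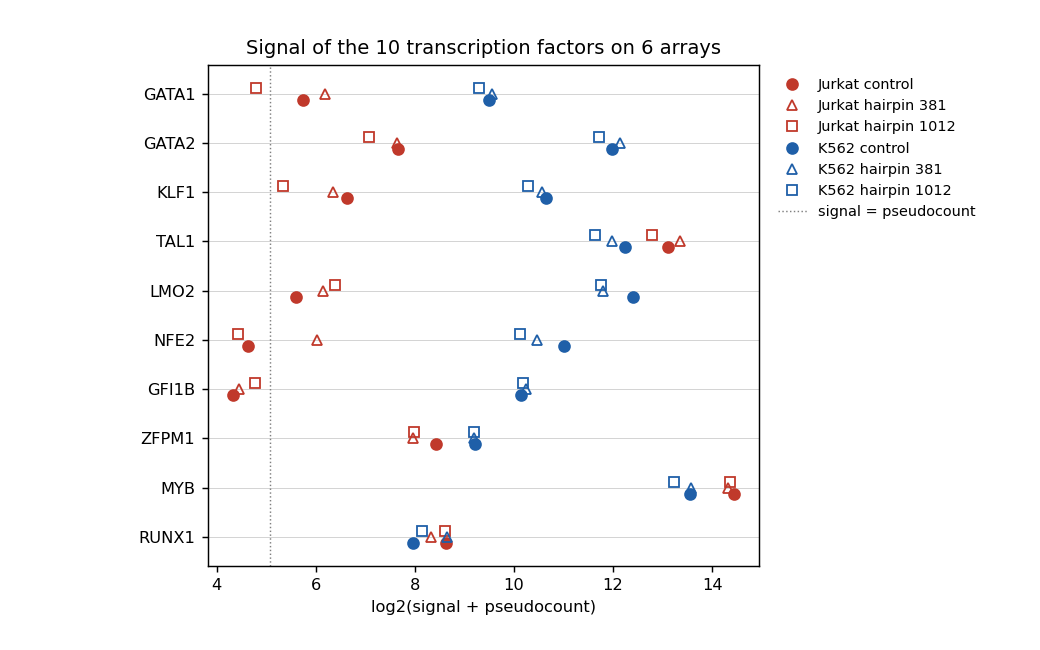
Signal of the brightest probe set of each of the 10 genes on the 6 arrays, as log2(signal + 16.9), with Jurkat in red, K562 in blue, the control as a filled circle and the hairpins 381 and 1012 as an open triangle and square; the dotted line marks a signal equal to the pseudocount. The K562 and Jurkat arrays do not overlap for 9 of the 10 genes, K562 being higher for 7 and lower for TAL1 and MYB, and RUNX1 is the gene whose arrays overlap.

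The SCL complex members fell on both sides. LMO2, the bridging protein of the complex, read 31.7, 54.4 and 66.5 in Jurkat and 5382, 3545 and 3464 in K562 with probe set 204249_s_at. The lines did not overlap, and the difference was 5.94 ± 0.25. Between the control arrays the ratio of signals, with no pseudocount, was 170 for LMO2, 258 for NFE2 and 345 for GFI1B (237403_at), so the order of these 3 genes differs from that on the log2 scale. A second LMO2 probe set, 231049_at, did not pass the filter, and it read 1.45, 3.29 and 1.64 in Jurkat against 509, 256 and 106 in K562.

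TAL1, the basic helix-loop-helix protein of that complex, is known for its aberrant activation in T cell acute leukaemia, Jurkat included. Its brightest probe set, 206283_s_at, read 8848, 10359 and 7047 in Jurkat and 4801, 4046 and 3176 in K562. TAL1 was therefore bright in both lines, and every Jurkat array exceeded every K562 array, with a difference of -1.13 ± 0.10 (adjusted p = 4.58e-06, limma). Probe set 1561651_s_at gave -1.09 ± 0.25 (adjusted p = 0.003, limma). In contrast, 216925_s_at read 806, 730 and 648 in Jurkat and 770, 693 and 570 in K562, and its difference of -0.11 ± 0.15 did not pass (adjusted p = 0.561, limma; 95% interval -0.43 to 0.22). The fourth, 216928_at, was between 4.08 and 33.3 on all arrays and did not pass the filter.

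ZFPM1 (FOG1), the GATA1 cofactor, read 326, 233 and 235 in Jurkat and 577, 567 and 565 in K562 with probe set 242282_at. The K562 arrays were nearly level and all above Jurkat, and the difference was 1.08 ± 0.18 (adjusted p = 0.000362, limma). The dimmer 237463_at read 71.9, 41.8 and 48.7 in Jurkat and 74.5, 107 and 41.0 in K562, where the lines overlapped and the difference of 0.31 ± 0.33 did not pass (adjusted p = 0.438, limma; 95% interval -0.41 to 1.03).

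MYB, which sustains proliferation of progenitors and of T cell precursors, read 22262, 20518 and 20999 in Jurkat and 11955, 12086 and 9541 in K562 with probe set 204798_at. All Jurkat arrays were higher, and the difference was -0.93 ± 0.08 (adjusted p = 2.3e-06, limma). The second MYB probe set, 215152_at, read 359, 254 and 378 in Jurkat and 306, 155 and 266 in K562. Its arrays overlapped between the lines and the difference of -0.45 ± 0.19 did not pass (adjusted p = 0.0577, limma; 95% interval -0.86 to -0.04).

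**Figure D2:**
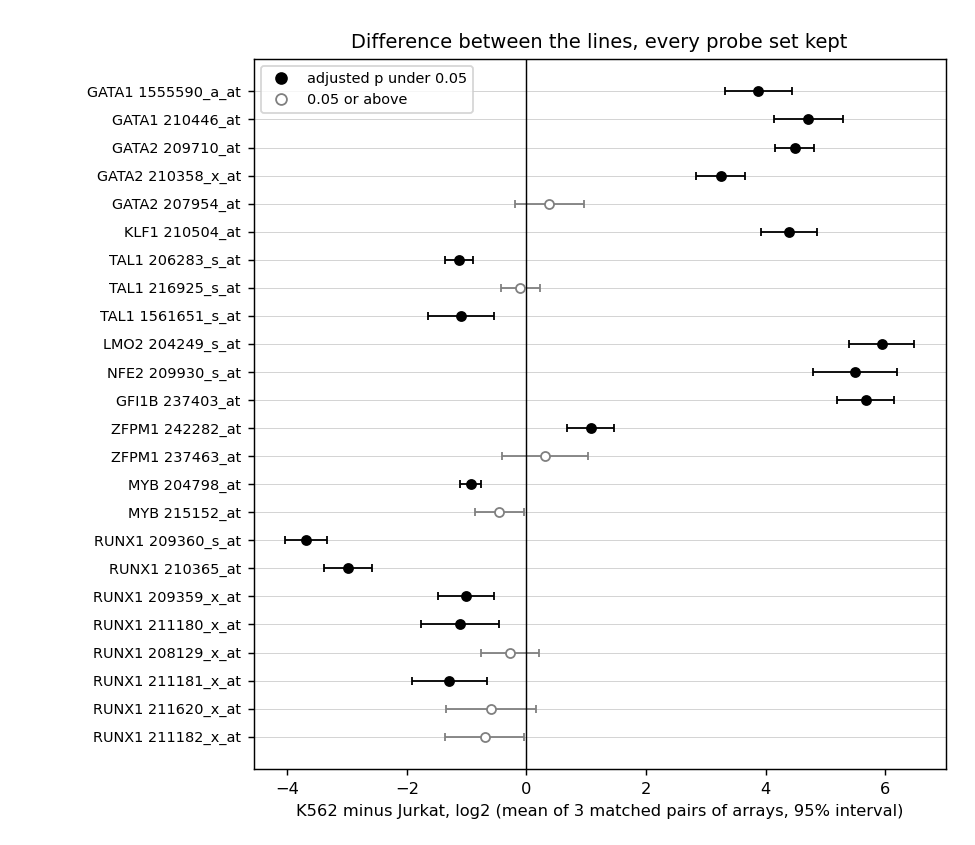
Difference between K562 and Jurkat on the log2 scale for the 24 probe sets annotated to a member that passed the filter. Points are the mean of 3 pairs of arrays with its 95% interval, filled at an adjusted p under 0.05 (limma) and open elsewhere. The kept probe sets of GATA1, KLF1, LMO2, NFE2 and GFI1B, and ZFPM1 237463_at, passed the filter only through K562. RUNX1 211181_x_at, 211182_x_at and 211620_x_at passed it only through Jurkat. For all of these the filling is a description. The points of LMO2 (5.94), GFI1B (5.67) and NFE2 (5.50) lie far to the right, with Jurkat means below the filter level so that their order depends on the pseudocount, and the lowest value is -3.69 for 209360_s_at, which like all RUNX1 probe sets is also annotated to noncoding loci.

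RUNX1, the core binding factor subunit that is needed for the first blood stem cells, gave the least uniform picture. The probe set assigned to RUNX1 by accession, 208129_x_at, read 380, 302 and 373 in Jurkat and 231, 382 and 266 in K562. The lines overlapped and the difference of -0.27 ± 0.22 did not pass (adjusted p = 0.309, limma; 95% interval -0.76 to 0.21). Of the 12 other probe sets, which carry the same 3 annotated loci, 7 passed the filter and 5 did not.

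The brightest of these other probe sets, 209360_s_at, read 11683, 7463 and 9501 in Jurkat and 613, 667 and 881 in K562. Its lines were far apart, with a difference of -3.69 ± 0.16 (adjusted p = 1.3e-08, limma). For 210365_at, at 826, 1260 and 1051 in Jurkat and 77.3, 184 and 105 in K562, the difference was -2.99 ± 0.18 (adjusted p = 1.99e-07, limma). A further 3 probe sets were lower in K562, by -1.01 ± 0.21 (209359_x_at), -1.11 ± 0.29 (211180_x_at) and -1.29 ± 0.28 (211181_x_at). The call of 211180_x_at was lost when the control or the hairpin 1012 array of either line was left out, at -0.95 and -0.75. The others, 211182_x_at and 211620_x_at, gave -0.70 ± 0.30 and -0.59 ± 0.34 and did not pass (adjusted p = 0.0653 and 0.163, limma), while with no intensity trend 211182_x_at passed (adjusted p = 0.0303, limma). Thus 5 of the 8 RUNX1 probe sets that passed the filter were lower in K562 and 0 were higher (30.2% and 27.8% of all probe sets). The one assigned by accession was not among the 5. On average 211181_x_at, 211182_x_at and 211620_x_at exceeded the filter level in Jurkat alone. They could pass only by being higher there, so the count is a description.

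**Figure D3:**
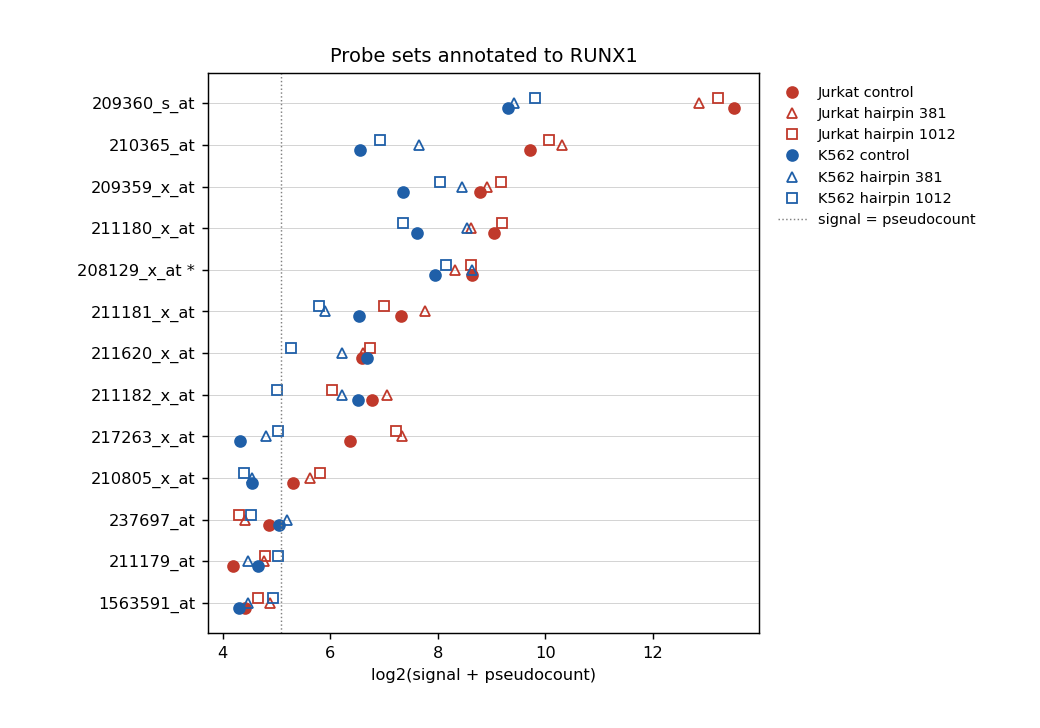
All 13 probe sets annotated to RUNX1 on the 6 arrays, as log2(signal + 16.9); all 13 are also annotated to noncoding loci, and the asterisk marks 208129_x_at, assigned to RUNX1 by its accession. The Jurkat arrays of 209360_s_at and 210365_at stand above the K562 arrays (-3.69 and -2.99 for K562 minus Jurkat), while those of 208129_x_at overlap.

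For silenced against control, all 6 arrays were fitted as 4 groups with limma, and the spread came from the difference between the hairpins, since no control array was replicated. No probe set passed at an adjusted p under 0.05 in Jurkat (0% of 27306, with 989 at an unadjusted p under 0.05), in K562 (0%, with 1313), in their average (0%, with 1603) or in the difference between the lines (0%, with 725). Without the K562 hairpin 381 array 3 probe sets passed in K562 and 9 in the average, and without the K562 hairpin 1012 array 4 passed in K562. With the hairpin as a replicate block 9 passed in the average. The targeted gene did not pass either. ZFX 229022_at was at -1.54 ± 0.31 in Jurkat and -1.37 ± 0.31 in K562 (adjusted p = 0.999 and 0.882, limma). A member that did not pass is therefore not shown to be unchanged. The p-values measure the spread between the arrays of the hairpins, not between cultures. Among the 17 probe sets of members 2, 0, 1 and 1 had an unadjusted p under 0.05 in these 4 contrasts. Their values are given below as the difference of each hairpin from the control of its line, and both differences share that control array.

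In K562, the line in which most members are bright, GATA1 was 0.05 above control with hairpin 381 and -0.21 with 1012 (log2, 1555590_a_at), the second probe set being at -0.11 and -0.37. The fitted mean of the first was -0.08 ± 0.52 (95% interval -1.28 to 1.12). GATA2 (209710_at) was at 0.16 and -0.26, so the hairpins lay on either side of control, with a mean of -0.05 ± 0.33 (-0.81 to 0.71). KLF1 was at -0.08 and -0.37 and had a mean of -0.23 ± 0.42 (-1.19 to 0.74). None of these 3 means exceeded its SE.

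Among the brightest probe sets of the members, NFE2 and LMO2 had the lowest K562 means. NFE2 was at 68.0% and 54.1% of its control signal with 381 and 1012, or -0.55 and -0.88 on the log2 scale, with a mean of -0.71 ± 0.57 (95% interval -2.02 to 0.59, adjusted p = 0.998, limma). LMO2 was at 65.9% and 64.4% of control, or -0.60 and -0.63, with a mean of -0.62 ± 0.28 (-1.25 to 0.01, adjusted p = 0.998). The LMO2 probe set that the filter removed stood at 50.4% and 20.9% of control. For LMO2 the hairpins lay close together and both below control, yet the mean did not pass the test over all probe sets.

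TAL1 (206283_s_at) was at -0.25 and -0.59 in K562, with a mean of -0.42 ± 0.26 (-1.01 to 0.17). Its dimmer probe set 1561651_s_at stood at 63.9% and 67.5% of control. GFI1B (237403_at) was at 0.11 and 0.05 and ZFPM1 (242282_at) at -0.02 and -0.03, so these probe sets stayed next to control with either hairpin. Their dimmer probe sets did not. GFI1B 208501_at, which the filter removed, was at 0.57 and 0.37, and ZFPM1 237463_at at 0.43 and -0.66. MYB (204798_at) was at 0.02 and -0.32, its dimmer probe set 215152_at at -0.91 and -0.19, and RUNX1 (208129_x_at) at 0.68 and 0.19. The dim GATA2 probe set 207954_at was also above control with both hairpins, at 182 and 184 against 111 (0.64 ± 0.38, 95% interval -0.23 to 1.52). The RUNX1 probe set 209359_x_at was at 332 and 247 against 146 in the control (0.90 ± 0.31, adjusted p = 0.973, limma). Of the 8 kept RUNX1 probe sets, 4 were above control with both hairpins and 3 below (31.8% and 33.9% of all probe sets). Those below, dim in K562, were 211181_x_at (-0.68 ± 0.43), 211182_x_at (-0.91 ± 0.62) and 211620_x_at (-0.94 ± 0.49).

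In Jurkat several members are dim, and their differences rest on small signals. GATA1 was at 0.45 and -0.95 with 1555590_a_at and at -1.32 and -1.13 with 210446_at. The latter had the smallest unadjusted p of the members, with a mean of -1.23 ± 0.33 (95% interval -1.98 to -0.47, unadjusted p = 0.00533, adjusted p = 0.999, limma), from a control signal of only 39.5. The 2 GATA1 probe sets thus differed with hairpin 381, one above and one below control. KLF1 was at -0.28 and -1.29, and NFE2 at 1.39 and -0.21, where the first value comes from signals of 48.3 and 7.93. GFI1B (237403_at) was at 0.11 and 0.44, from signals of 4.86 and 10.5 against 3.22.

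LMO2 was above control with both hairpins in Jurkat, at 0.55 and 0.78, from signals of 54.4 and 66.5 against 31.7. Its mean of 0.66 ± 0.28 had an unadjusted p = 0.0413 and an adjusted p = 0.999 (limma). Relative to Jurkat the K562 effect on LMO2 was -1.28 ± 0.39 (95% interval -2.17 to -0.39, unadjusted p = 0.0105, adjusted p = 1.00, limma), so the opposite directions in the lines did not pass the test of their difference.

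MYB and TAL1 had Jurkat means smaller than their SE. MYB was at -0.12 and -0.08, with a mean of -0.10 ± 0.16 (95% interval -0.47 to 0.27). TAL1 (206283_s_at) was at 0.23 and -0.33, with hairpins on either side of control and a mean of -0.05 ± 0.26 (-0.64 to 0.54). ZFPM1 (242282_at) was below control with both hairpins, at 71.5% and 72.0% of its signal or -0.46 and -0.45 (mean -0.45 ± 0.27, -1.08 to 0.17), RUNX1 (208129_x_at) at -0.32 and -0.02, and GATA2 (209710_at) at -0.01 and -0.59. The RUNX1 probe set 209360_s_at was below control in Jurkat (-0.65 and -0.30) and above it in K562 (0.12 and 0.51). Of the 8 kept RUNX1 probe sets, 2 were below control with both hairpins in Jurkat and 3 above (33.3% and 31.7% of all probe sets).

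**Figure D4:**
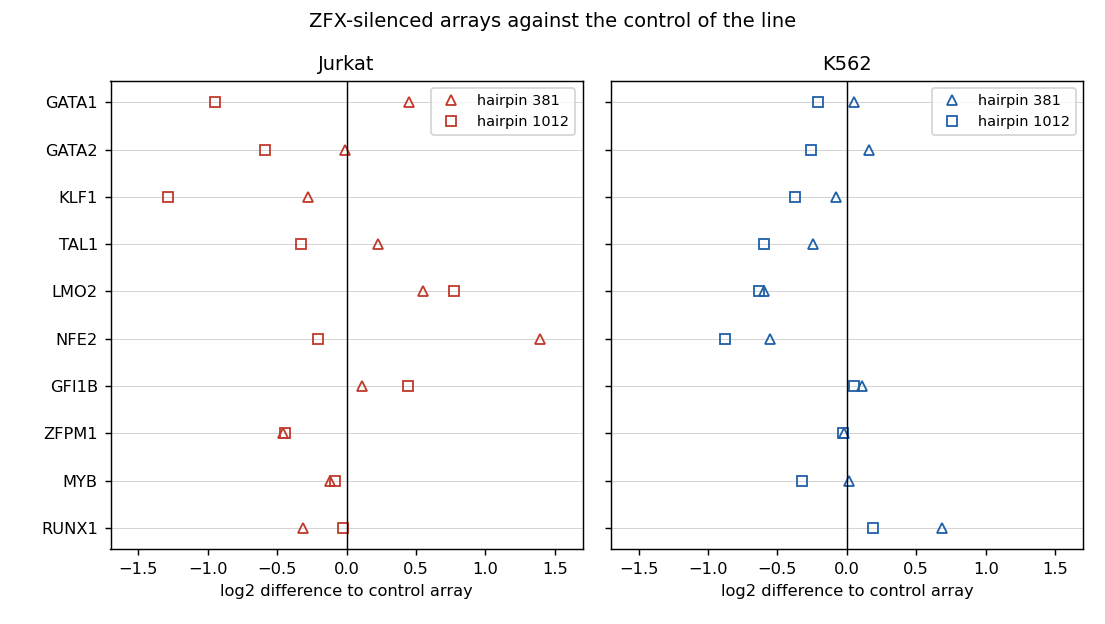
Log2 difference of each ZFX-silenced array to the control array of its line for the brightest probe set of each gene, with Jurkat at the left and K562 at the right, hairpin 381 as triangles and 1012 as squares. In K562 the value of 1012 is lower than that of 381 for all 10 genes, LMO2 and NFE2 being lowest with 1012 at -0.63 and -0.88, and in Jurkat LMO2 lies above control with both hairpins at 0.55 and 0.78. The K562 values nearly coincide for ZFPM1 (-0.02 and -0.03), LMO2 (-0.60 and -0.63) and GFI1B (0.11 and 0.05).

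The 10 genes were also counted by side of control. In K562 both hairpins were below control for 5 of 10 (33.9% of all probe sets) and both above for 2 (31.8%), and in Jurkat these were 5 (33.3%) and 2 (31.7%). All 4 silenced arrays lay below control for 2 of 10, KLF1 and ZFPM1 (14.3% of all). With hairpin 1012, 8 of 10 were below control in K562 (52.3%) and 8 in Jurkat (50.3%), and with 381 it was 5 in each line (49.9% and 51.3%). The median of the 10 genes with 1012 was -0.29 in K562 and -0.27 in Jurkat, against -0.023 and -0.0024 over all probe sets, and with 381 it was -0.0039 and 0.051.

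Between the hairpins, 1012 was lower than 381 in K562 for all 10 genes and for 14 of the 17 probe sets, where 52.7% of all probe sets were lower. In Jurkat it was lower for 5 of 10 genes and 9 of 17 probe sets (48.8%), and in both lines for 5 of 10 and 7 of 17 (29.7%). Each sign within a line rests on 1 pair of arrays, and some gaps were small. With 381 and 1012 in K562, ZFPM1 (242282_at) read 567 and 565, LMO2 3545 and 3464, and GFI1B 1199 and 1152. In the limma fit with the line as a block, 210 of 27306 probe sets differed between the hairpins (0.769%), and 0 of the members did. Without the Jurkat 381, K562 381 or K562 1012 array that count was 38, 72 and 94, and with no intensity trend it was 0. Of the members' 17 probe sets 7 had an unadjusted p under 0.05, as did 3471 of all 27306, and the smallest adjusted p was 0.158, for TAL1 (206283_s_at, -0.45 ± 0.13). GATA2 (209710_at) gave -0.50 ± 0.18, KLF1 -0.65 ± 0.26, NFE2 -0.96 ± 0.39 and GATA1 (1555590_a_at) -0.83 ± 0.31, while MYB 215152_at gave 0.64 ± 0.23. These values average the lines, and the Jurkat signals of KLF1, NFE2 and GATA1 were dim. With 381 and 1012, NFE2 read 48.3 and 4.63 in Jurkat, and 1389 and 1104 in K562. GATA1 read 55.9 and 10.8 in Jurkat, and 735 and 613 in K562. KLF1 read 64.7 and 23.7 in Jurkat, and 1510 and 1229 in K562.

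Technical readings also differed between the arrays. The median log2 signal of 27 poly-A spike control probe sets was 7.61, 7.98 and 8.24 on the K562 control, 381 and 1012 arrays and 8.46, 8.58 and 8.87 on the Jurkat arrays. The ratio of the ACTB probe set at the 3′ end to that at the 5′ end was 11.1, 8.61 and 7.54 in K562 and 9.27, 9.99 and 8.43 in Jurkat. Their part in the hairpin values of the members was not tested.

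Genes that work with the members were taken as lists, each gene by its brightest probe set. A gene dim in one line could pass the filter through the other, so the counts and medians are descriptions. For comparison with each list, 30.2% of all 11785 genes were higher and 34.5% lower in K562 by their brightest probe set. Of the SCL complex partners 13 of 14 passed the filter, and 3 were higher and 4 lower in K562 (median 0.01). LYL1, a TAL1 relative, read 84.7, 96.4 and 97.9 in Jurkat and between 3981 and 4971 in K562 (5.33 ± 0.15). FLI1, an ETS factor of stem cells and megakaryocytes, was 3391 to 3813 in Jurkat and 2.80 to 3.50 in K562 (-7.51 ± 0.18), and the E protein TCF12 was lower in K562 by -1.79 ± 0.09. LDB1, the bridge between LMO2 molecules, was higher in K562 (1.10 ± 0.18, adjusted p = 0.000366, limma).

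Among the 19 repressor and co-factor subunits used by GATA1, GFI1B and ZFPM1, 1 was higher and 8 were lower in K562. The shares over all genes were 30.2% and 34.5%, and the list median was -0.05. Differences were small, HDAC1 at -0.70 ± 0.08, CTBP1 at -0.66 ± 0.09 and RBBP4 at -0.60 ± 0.09. NFE2 partners and relatives gave 4 higher and 3 lower of 7 (median 0.62), among them the small MAF protein MAFG (1.60 ± 0.14), the stress regulator NFE2L2 (0.70 ± 0.09) and the repressor BACH2 (-2.64 ± 0.19).

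Of the 14 genes listed as family members of other lineages, 8 were lower and 1 was higher in K562 (34.5% and 30.2% of all genes), with a median of -1.28. The list was drawn by name, and whether each gene belongs to another lineage was not tested. It also held CBFB, among the 8 lower (-0.35 ± 0.10), and KLF3, the 1 higher (2.46 ± 0.14). GATA3, the T cell GATA factor, read 4573, 4168 and 4813 in Jurkat and 31.2, 60.8 and 51.0 in K562 (-6.16 ± 0.19), and RUNX2 and KLF13 differed by -4.17 ± 0.18 and -3.23 ± 0.15. GATA6 gave 0.43 and did not pass (adjusted p = 0.192, limma), and GATA4 and GATA5 did not pass the filter. Of 17 other erythroid and stem cell regulators 9 were higher and 6 lower (median 0.62), with HHEX at 5.75 ± 0.23, IKZF2 at -6.85 ± 0.17 and the fetal globin repressor BCL11A at -8.14 ± 0.22. Of 17 erythroid target genes 15 were higher and 0 lower (median 2.70), led by RHAG (9.14 ± 0.15), the embryonic globin HBE1 (9.24 ± 0.15) and the blood group protein XK (6.74 ± 0.17), while ALAS2, SLC4A1 and EPB42 did not pass the filter.

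**Figure D5:**
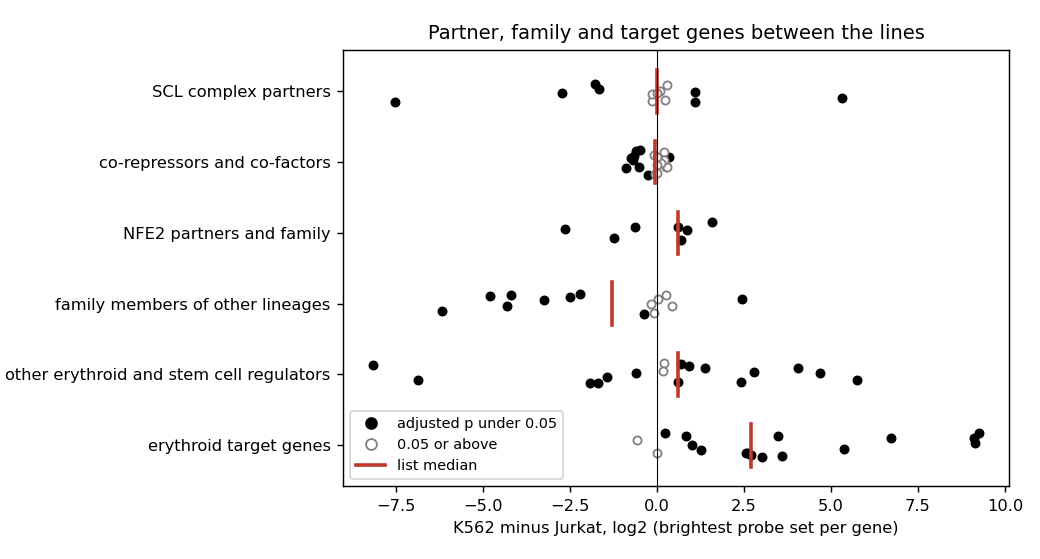
Difference between K562 and Jurkat on the log2 scale for genes that work with the 10 transcription factors, one point per gene by its brightest probe set, filled where it passed at an adjusted p under 0.05 (limma), with the list median as a red line. The erythroid target genes lie to the right (median 2.70) and the family members of other lineages to the left (median -1.28), and the repressor subunits centre at -0.05. A gene dim in one line could pass the filter through the other, so the filling is a description.

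None of these listed genes passed in a silencing contrast. The smallest p in each list belonged, in K562, to HBZ, an embryonic globin, whose control read 24148 and whose silenced arrays read 11085 and 9263 (-1.25 ± 0.32, adjusted p = 0.887, limma), to LMO1, a relative of LMO2, at 2.90, 60.8 and 34.5 (1.67 ± 0.42), to GFI1, the sister gene of GFI1B, at 2.01, 56.1 and 13.8 (1.32 ± 0.51), and to BCL11A, MAFF and GATAD2A. In Jurkat they were the corepressor CBFA2T3, at 3793, 2151 and 2224 (-0.79 ± 0.24, adjusted p = 0.999, limma), HHEX at 27.0, 109 and 66.4 (1.22 ± 0.32), SLC25A37, KLF2, MAFF and RBBP7. Over both lines IKZF1, a lymphoid zinc finger regulator, was lowest in p among the other regulators, at 9318, 5414 and 6889 in Jurkat and 3162, 2266 and 2443 in K562 (-0.52 ± 0.15, adjusted p = 0.814, limma). For the other lists the smallest p over both lines was that of LMO1, MBD3 (-0.38 ± 0.18), MAFF, KLF2 and HBZ, all with adjusted p of at least 0.825. Between the hairpins 2 listed genes passed, RCOR1 at 0.68 ± 0.13 and RBBP4 at -0.57 ± 0.11 (adjusted p = 0.0432 and 0.0492, limma), both subunits of histone-modifying complexes, and neither call held with no intensity trend, where 0 probe sets passed.

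RUNX1-IT1, a noncoding RNA within the span of RUNX1, was followed because it lies in that gene. It read 522, 326 and 477 in Jurkat and 8.60, 155 and 97.9 in K562. It was thus dim in the K562 control and brighter with both hairpins, by 2.46 ± 0.38 (adjusted p = 0.882, limma). Without the K562 hairpin 1012 array it passed, at 2.75 and an adjusted p = 0.0433 for RUNX1-IT1 220918_at.

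For each member the gene with the most similar pattern over the 6 arrays was found by Pearson correlation of log2 values, as a description. The pattern is set mainly by the line difference that all 6 arrays share, and r was between 0.976 and 1.00. The nearest were FCRLB for GATA1, VCL for GATA2, BEX4 for KLF1, PIK3R4 for TAL1, CCDC8 for LMO2, RBM20 for NFE2, OSBPL9 for GFI1B, MAN1A1 for ZFPM1, DEF6 for MYB and DNAJC4 for RUNX1. VCL, for example, read 311, 301 and 169 in Jurkat and 9194, 9795 and 7600 in K562, lowest with hairpin 1012 in each line as GATA2 is. RUNX1, with overlapping lines, had the lowest r to its nearest gene (0.976).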

How the data were processed

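The 6 Affymetrix arrays hold 54675 probe sets each, and every array had RNA pooled from 3 replicates, per the labels. Deposited values are intensities on a linear scale, for which the submitters' processing notes name MAS5, with version and settings not given in the sources used here. Their trimmed mean was 500.1 throughout, so arrays had been scaled to one target. No detection calls were used, and 6 arrays limit the precision.

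Probe sets were named from the platform annotation, checked against the RefSeq table (41043 of 41097 single-symbol probe sets matched by Entrez identifier). Intensities were transformed to log2(signal + 16.9), where 16.9 is the 25th percentile of all values. Array controls were removed and probe sets above the median mean, equal to a signal of 54.4, were kept (27306). No further normalization was applied. Tests used limma 3.58.1 in R 4.3.3 with an intensity trend, two-sided, adjusted by Benjamini-Hochberg over all kept probe sets, with a threshold of 0.05. One fit had 4 groups (control and silenced in each line) and a second had line and arm, each with 2 residual degrees of freedom. The unreplicated controls were taken to vary as the silenced arrays do. Both fits were tested on simulated data with independent normal errors. These held no effect of a hairpin or of a control array, and no recovery rate is drawn from them here.

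All probe sets of the 10 members were described. From each list the 3 genes with the smallest p between the lines and the gene with the smallest p in each of the Jurkat, K562 and average silencing contrasts were named, and for each member the nearest gene by correlation. LDB1, GATA6, RCOR1 and the named surface markers were chosen after their values were seen. The members and lists were chosen with earlier results of these data known. Alternatives covered the pseudocount, filter, normalization, intensity trend, 1 probe set per gene, hairpin as a block and each array left out. Same-numbered hairpins are different arrays in each line, and their deviations correlated between the lines with r = 0.18 over probe sets.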

Additional observations from a re-analysis of the deposited data

Results flagged for a closer look

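Of the 24 kept member probe sets, 5 had both hairpins on one side of control in Jurkat and on the other side in K562. All were included for that opposite pattern alone, and its share over all probe sets is not given here. For RUNX1 211620_x_at the Jurkat differences were only 0.012 and 0.15. The silencing effect in K562 minus that in Jurkat was -1.28 ± 0.39 for LMO2 204249_s_at, -0.66 ± 0.48 for TAL1 1561651_s_at, 0.61 ± 0.46 for RUNX1 208129_x_at, 0.79 ± 0.37 for RUNX1 209360_s_at and -1.02 ± 0.69 for RUNX1 211620_x_at. The RUNX1 probe sets are also annotated to noncoding loci. None of the 5 passed the limma test of the difference (adjusted p = 1.00 for each, with 0 calls among 27306 probe sets and 725 at an unadjusted p under 0.05). No group had the 4 arrays needed to look for a single array far from the others.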

How the results depend on the processing

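Of 1468 alternative values over 111 results of single probe sets, 1443 kept their direction and side of the threshold. The smallest adjusted p of a member in a silencing contrast was 0.814 (limma). For such results keeping the side of the threshold therefore says little. The count of probe sets that differed between K562 and Jurkat was 9023 with the filter at the 75th percentile and 7617 with 1 probe set per gene, both of which test fewer features, and 14480 with no replicate block (the arm) against 15826. With the hairpin as a replicate block 9 probe sets passed in the average silencing contrast and 0 in the other silencing contrasts. Leaving out 1 array gave 0 to 9 in the average contrast (9 without the K562 hairpin 381 array), 0 to 4 in K562 (3 and 4 without the K562 hairpin 381 and 1012 arrays), and 38 to 270 between the hairpins (38 without Jurkat 381, 72 without K562 381, 94 without K562 1012). Between the hairpins 130 passed with a pseudocount 4 times smaller, 126 with no filter, 341 with the filter at the 75th percentile, 109 with 1 probe set per gene and 0 with no intensity trend. The cause was not tested. Values near 0 changed sign: TAL1 216925_s_at, K562 minus Jurkat, was 0.0088 with quantile normalization, and ZFPM1 242282_at, hairpin 1012 minus 381, was -0.018 with quantile and -0.011 with cyclic loess normalization.

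With 1 array left out, other ranges crossed 0. ZFPM1 237463_at, K562 minus Jurkat, ran from -0.070 to 0.56. For Jurkat silenced minus control, GATA1 1555590_a_at, Jurkat silenced minus control, ran from -0.95 to 0.45, TAL1 206283_s_at, Jurkat silenced minus control, from -0.33 to 0.23 and NFE2 209930_s_at, Jurkat silenced minus control, from -0.21 to 1.39. GATA1 1555590_a_at, K562 silenced minus control, ran from -0.21 to 0.048, GATA2 209710_at, K562 silenced minus control, from -0.26 to 0.16 and MYB 204798_at, K562 silenced minus control, from -0.32 to 0.016. Between the hairpins, LMO2 204249_s_at, hairpin 1012 minus 381, ran from -0.32 to 0.51, GFI1B 237403_at, hairpin 1012 minus 381, from -0.058 to 0.33, ZFPM1 242282_at, hairpin 1012 minus 381, from -0.11 to 0.12, MYB 204798_at, hairpin 1012 minus 381, from -0.31 to 9.9e-05 and RUNX1 208129_x_at, hairpin 1012 minus 381, from -0.55 to 0.35. With 1 control array per line and dim members in Jurkat, small changes of GATA1, KLF1, NFE2, LMO2 and GFI1B there were not detectable.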
